A study of Mus musculus with 12 samples.

Results

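The mouse potassium channel genes were taken as every protein-coding gene whose symbol begins with Kcn, which gave 94 of the 55416 genes measured. Of these 94, 90 had at least 1 read, 77 had a mean of at least 1 normalised read over the libraries and could be tested, and 42 were expressed, counted as a CPM (reads scaled to the library's total) of at least 1 in at least 3 libraries. Kcna10, Kcnh8, Kcns2 and Kcnv1 had 0 reads in every library, which allows up to 3 reads in each. A further 5 genes with a Kcn name, such as antisense transcripts, do not code for protein and were not members. RNA came from neonatal mouse cardiomyocytes in culture, heart muscle cells of newborn mice, and was sequenced as polyadenylated RNA in 12 libraries, 3 in each of 4 groups. Cells received PBS or phenylephrine (PE), an alpha-adrenergic agonist that makes these cells grow, for 24 hours in the case of PE. Each treatment was combined with a negative control GapmeR or with a GapmeR against lincRNA-p21. GapmeRs are short antisense strands through which RNase H cuts the matching RNA, so control cells carried such a strand too. The labels do not state whether the 3 libraries of a group came from separate cultures, so p-values speak only of spread among the libraries, which may be technical.

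Potassium channels pass potassium ions out of the heart cell, which ends each action potential and holds the resting voltage between beats. Voltage-gated pore subunits open when the membrane depolarises, inward rectifiers (Kcnj) hold the resting voltage or answer to acetylcholine and to the energy state of the cell, calcium- or sodium-activated channels open with those ions, and tandem-pore channels (Kcnk) carry background current. Silent modifier subunits make a channel only together with other voltage-gated subunits, and auxiliary subunits (Kcne, Kcnip, Kcnab, Kcnmb) bind the pore and change its gating or transport.

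The pore subunits share a selectivity filter, a short stretch that lines the narrow part of the pore. In the longest GENCODE coding sequence of each gene, a run of 5 codons for serine or threonine, any residue, glycine, tyrosine or phenylalanine, and glycine was present in all 77 genes classed as pore-forming, which are 30 voltage-gated, 15 inward rectifier, 14 tandem-pore, 10 silent modifier and 8 calcium- or sodium-activated genes. It was found in 0 of 16 auxiliary genes and not in Kcnrg, a regulator of channel assembly. Of the 14 tandem-pore genes 11 held more than 1 such run, and channels of that family have paired pore domains. A filter with residues outside this pattern is missed by the search, so a gene with 1 run may still have paired pore domains. The windows are shown for the channels on which the results turn, with 15 bases on each side and the 5 filter codons in capitals.
Kcnj3: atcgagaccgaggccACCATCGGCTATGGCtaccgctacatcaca
Kcnj5: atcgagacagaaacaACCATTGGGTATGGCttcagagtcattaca
Kcnj4: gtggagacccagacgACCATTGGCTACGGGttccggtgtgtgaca
Kcnj2: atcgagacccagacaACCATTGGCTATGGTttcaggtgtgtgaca
Kcnd2: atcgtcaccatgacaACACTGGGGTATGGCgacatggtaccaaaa
Kcnq1: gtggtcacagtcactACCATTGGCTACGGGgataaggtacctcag
Kcnh2: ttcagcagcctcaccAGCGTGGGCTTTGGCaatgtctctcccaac
Kcnh7: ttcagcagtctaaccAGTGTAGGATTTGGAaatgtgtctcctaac
Kcnn1: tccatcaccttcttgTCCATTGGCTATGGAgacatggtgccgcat

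The inward rectifier filters lie on GRCm38.p6 at chr2:55437627-55437641 on the plus strand (Kcnj3), chr9:32322559-32322573 on the minus strand (Kcnj5), chr15:79485367-79485381 on the minus strand (Kcnj4) and chr11:111072207-111072221 on the plus strand (Kcnj2), all within coding exons. Kcnj4 and Kcnj2 had the same base at 39 of the 45 positions, Kcnh2 and Kcnh7 at 37, Kcnj3 and Kcnj5 at 33, and Kcnj3 and the voltage-gated Kcnd2 at 24. The codon before the last coded for tyrosine in 59 and for phenylalanine in 16 of 75 first windows outside chromosome 18, and Kcnh2 and Kcnh7 were among the latter. Although these genes share the filter, Kcnj3 fell and Kcnj4 rose with PE, and Kcnq1 fell and Kcnq5 rose, as the values given further on show.

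Library depth lay between 21325485 and 22139681 reads in genes, and mitochondrial genes took 4.33% to 10.7% of them. The target lincRNA-p21 (Trp53cor1) had 59.8, 70.6 and 63.2 normalised reads in PBS control libraries and 12.7, 22.6 and 10.1 in PBS knockdown libraries, and 56.0, 34.0 and 34.7 against 8.56, 9.97 and 8.94 in PE. It was lower with the knockdown in PBS (log2 change -2.10 ± 0.30 SE, limma adjusted p = 2e-04) and in PE (-2.03 ± 0.30, limma adjusted p = 9.2e-05). All 8 cardiomyocyte markers were detected, with a summed mean of 621400 normalised reads in PBS control and 925700 in PE control. With PE 2 of the 8 rose and 1 fell, and Myh6 alone went from a mean of 323200 to 604600. The summed 8 fibroblast markers went from 61570 to 68060 in PBS control libraries to 36060 to 39820 in PE control libraries, and 6 of the 8 fell. The summed 7 endothelial markers went from 1878 to 2106 up to 4928 to 5489, and 5 of the 7 rose and 1 fell. Markers of smooth muscle cells and pericytes split, with 3 of 7 higher and 4 lower. Of 5 tested leukocyte markers 2 rose, of 6 Schwann cell and neuron markers 3 rose and 2 fell, and of 5 epicardial markers 1 rose and 1 fell. With the knockdown in PE, Ryr2 of the cardiomyocyte markers, Pdgfra of the fibroblast markers and Flt1 and Pecam1 of the endothelial markers fell, as did 1 marker of smooth muscle and pericytes. In PBS 1 Schwann cell and neuron marker fell and no marker of the other types was called. Their part in the channel results was not tested, and in these bulk libraries fewer cells of a type and less RNA per cell cannot be told apart.

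A few genes held most of the channel RNA. Levels were compared between genes as normalised reads per kilobase of exon, averaged over the 12 libraries. Kcng2, a silent modifier subunit, was highest at 1105, followed by Kcnh2 (833), the pore of the rapid delayed rectifier, Kcnk3 (704), an acid-sensitive background channel, Kcnj5 (625) and Kcnj3 (192), the subunits of the acetylcholine-activated channel, Kcnj11 (442), the pore of the ATP-sensitive channel, Kcne1 (252) and Kcnq1 (213), the auxiliary and pore subunits of the slow delayed rectifier. In PBS control libraries Kcnk3 (704 ± 32.6 SD, n = 3) and Kcnj5 (692 ± 47.0) were neighbours in that order and differed by less than the spread between libraries. Kcnj3 (387 ± 12.7) stood above Kcnq1 (276 ± 6.87) in this group, and the SDs did not reach each other.

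Each class had its own leading member. In PBS control cells Kcng2 made up 99.1% of the summed silent modifier level per kilobase, Kcnk3 90.2% of the tandem-pore level and Kcnh2 60.4% of the voltage-gated level. Kcnj5 with 37.1%, Kcnj11 with 29.8% and Kcnj3 with 20.8% led the inward rectifiers. The share of Kcnj3 among inward rectifiers was 4.80% in PE knockdown cells, and that of Kcnj4 was then 9.19%. Among auxiliary subunits the share of Kcne1 was 36.9% in PBS control, 61.6% in PE control and 69.3% in PE knockdown cells, while that of Kcnip2 was 27.2%, 8.38% and 4.44%. Expressed members numbered 12 of 30 voltage-gated, 8 of 15 inward rectifier, 9 of 16 auxiliary, 6 of 14 tandem-pore, 5 of 8 calcium- or sodium-activated and 2 of 10 silent modifier genes.

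**Figure D1:**
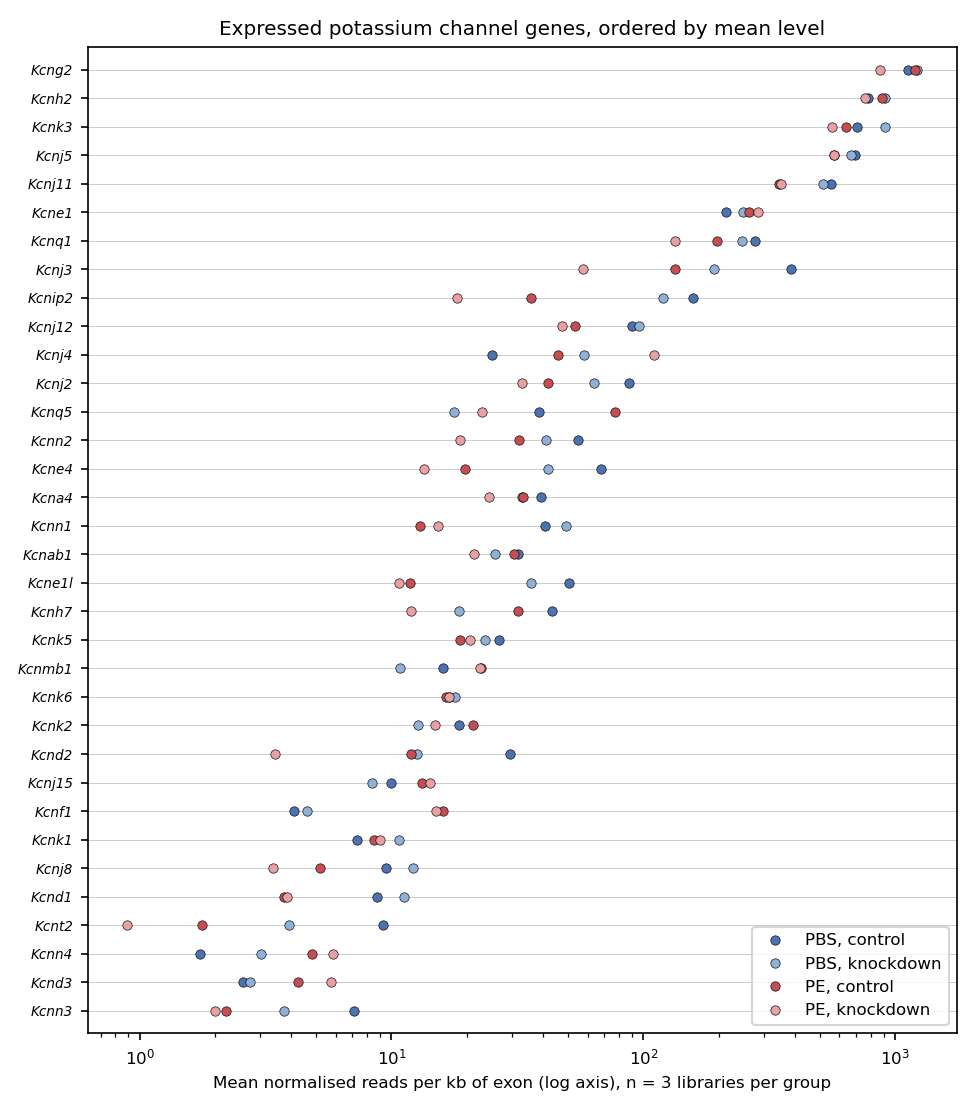
Mean level of 34 expressed Kcn genes in each of the 4 groups, in normalised reads per kilobase of exon on a log axis, n = 3 libraries per group. Kcng2, Kcnh2 and Kcnk3 stand at the top, and Kcnj3 spreads over the groups from 387 in PBS control to 57.5 in PE knockdown cells.

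PE lowered more potassium channel genes than it raised. In control cells 19 of 77 tested members fell and 9 rose, beside 12.8% of all 21799 tested genes that fell and 12.6% that rose. The median log2 change of the tested members was -0.23, beside -0.01 for all genes. The falls took in the transient outward subunits Kcnd2, Kcnd1 and Kcnip2, the inward rectifiers Kcnj3, Kcnj2, Kcnj12, Kcnj11 and Kcnj5, the slow delayed rectifier pore Kcnq1 and the small-conductance calcium-activated channels Kcnn1, Kcnn2 and Kcnn3. Of 26 genes listed for the known cardiac currents, 12 fell and 3 rose, with a median of -0.39. The rises took in Kcnj4, Kcnq5, Kcnf1, Kcnn4 and Kcne1.

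The acetylcholine-activated channel is built from Kcnj3 and Kcnj5, which pair in atrial and pacemaker cells. Kcnj3 (ENSMUSG00000026824.12, chr2:55435970-55598145, plus strand, GRCm38.p6) had 2093, 1970 and 1989 normalised reads in PBS control libraries and 694, 680 and 716 in PE control libraries. The groups lay far apart, and the log2 change was -1.53 ± 0.10 SE (limma adjusted p = 1.5e-09). Kcnj5 (ENSMUSG00000032034.7, chr9:32314707-32344350, minus strand) had 3406, 2991 and 3326 with PBS and 2747, 2747 and 2537 with PE. The groups did not overlap, and Kcnj5 fell by 0.28 ± 0.09 (limma adjusted p = 0.037). This call was lost without any 1 of PBS control replicates 1 and 3, the 3 PE control replicates and PE knockdown replicate 3, with a limma adjusted p of up to 0.15.

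The strong inward rectifiers, which hold the resting voltage, split. Kcnj2 (ENSMUSG00000041695.3, chr11:111066164-111076821, plus strand), best known for this current in the ventricle, had 484, 472 and 472 normalised reads with PBS and 194, 224 and 264 with PE. Kcnj2 fell by 1.07 ± 0.17 (limma adjusted p = 0.00012) and every PE library lay below every PBS library. Kcnj12, which makes a related current, went from 261, 255 and 228 to 143, 159 and 140 and fell by 0.74 (limma adjusted p = 0.0011). The third relative moved the other way. Kcnj4 (ENSMUSG00000044216.8, chr15:79483714-79505241, minus strand) had 47.4, 65.4 and 49.1 with PBS and 95.9, 102 and 96.6 with PE, and rose by 0.86 ± 0.17 (limma adjusted p = 0.00094). The rise left Kcnj4 at 45.6 normalised reads per kilobase. The summed inward rectifier level per kilobase was 1862 in PBS control and 1215 in PE control cells.

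The ATP-sensitive channel joins Kcnj11 or Kcnj8 to a sulfonylurea receptor. Kcnj11 had 1915, 2204 and 1995 normalised reads with PBS and 1243, 1238 and 1331 with PE, without overlap, and fell by 0.68 ± 0.10 (limma adjusted p = 6.6e-05). Kcnj8 was near 20 reads, at 19.9, 19.4 and 33.0 against 14, 14.9 and 10.8, and its change of -0.79 was not called (limma adjusted p = 0.11). Abcc9, the receptor subunit of heart muscle and no Kcn gene, went from a mean of 5132 to 1863 and fell by 1.46 (limma adjusted p = 2.9e-09).

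**Figure D2:**
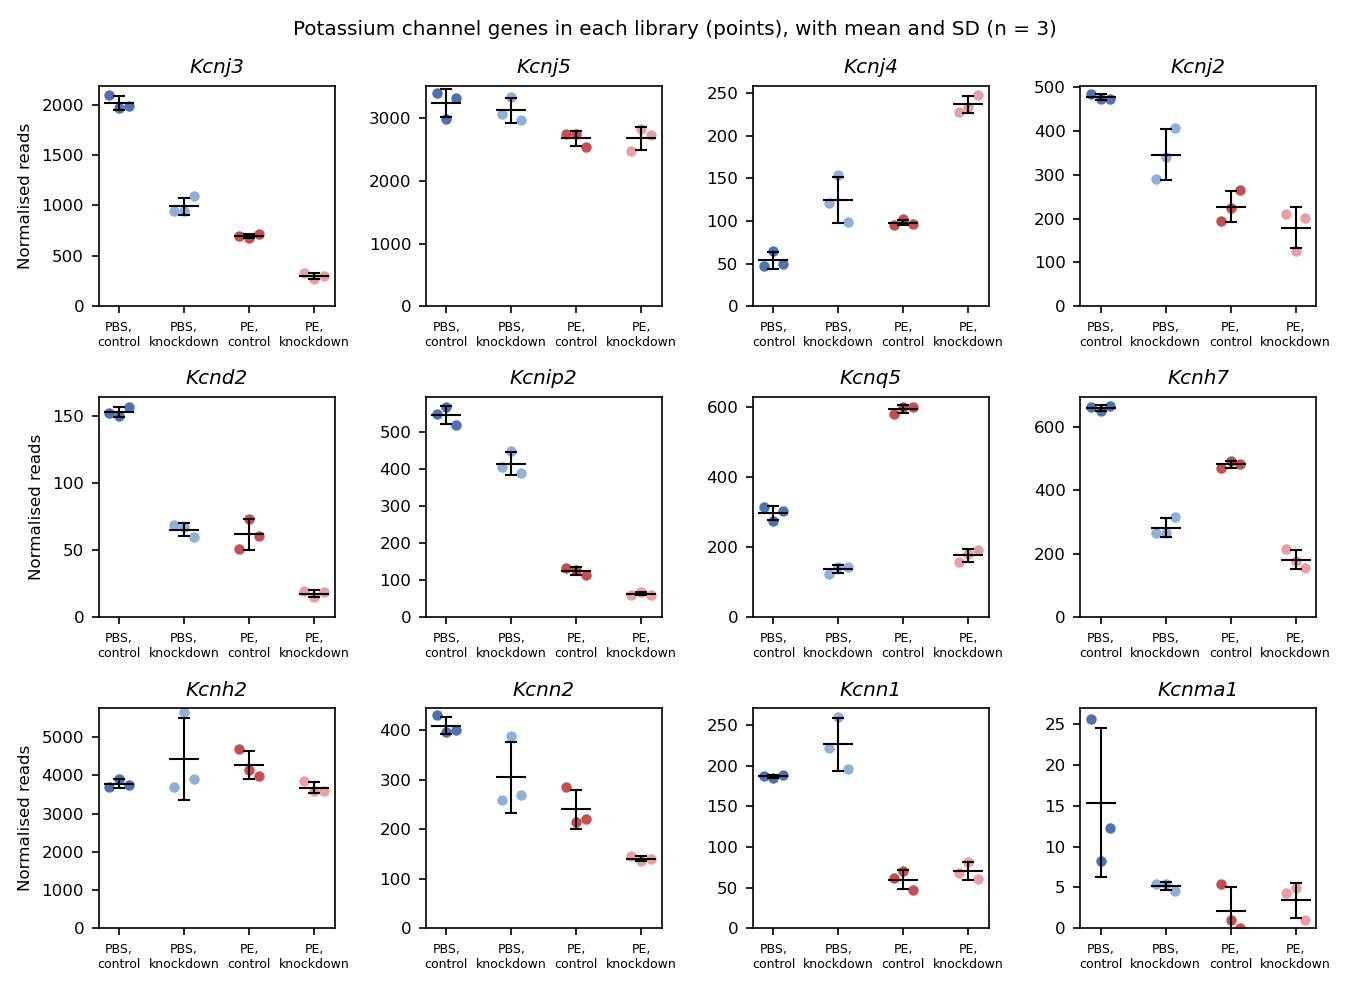
Normalised reads of 12 Kcn genes in each library, with the group mean and SD (n = 3) beside the points and axes that start at 0. Kcnj3, Kcnd2 and Kcnh7 step down with PE and again with the knockdown, and Kcnj4 steps up with both. Kcnh2 had no call, although its PE control libraries lie above its PBS control libraries.

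The fast transient outward current is carried by Kcnd2 and Kcnd3 with the calcium-sensing auxiliary subunit Kcnip2. Kcnip2 (ENSMUSG00000025221.17, chr19:45791839-45816061, minus strand) had 548, 566 and 519 normalised reads with PBS and 132, 127 and 113 with PE. The PE libraries lay far below the PBS libraries, and the log2 change was -2.12 ± 0.12 (limma adjusted p = 2.9e-10). Kcnd2 (ENSMUSG00000060882.6, chr6:21215503-21729805, plus strand) went from 152, 149 and 157 to 50.6, 73.3 and 60.8 and fell by 1.31 ± 0.19 (limma adjusted p = 3.9e-05). Kcnd1 fell by 1.20 (limma adjusted p = 0.0049) from 61.7, 42.9 and 34.9 to 12.9, 22.3 and 23.9. Kcnd3 had the opposite sign, 19.9, 31.7 and 22.6 against 49.5, 35.1 and 38.0, but its change of 0.71 was not called in control cells (limma adjusted p = 0.086). Kcna4, the pore of the slow transient outward current, had no call in control cells.

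The delayed rectifiers did not move together. Kcnh2 (ENSMUSG00000038319.15, chr5:24319589-24351604, minus strand) had 3686, 3902 and 3752 normalised reads with PBS and 4687, 4142 and 3993 with PE. The PE libraries were higher, but the change of 0.17 was not called (limma adjusted p = 0.35). Kcnq1 (ENSMUSG00000009545.15, chr7:143106362-143427042, plus strand) went from 1135, 1101 and 1157 to 825, 782 and 798 and fell by 0.50 ± 0.10 (limma adjusted p = 0.00097). Its auxiliary subunit Kcne1 went from 632, 738 and 682 to 831, 834 and 868 and rose by 0.31 ± 0.10 (limma adjusted p = 0.034). The call of Kcne1 was lost without PBS control replicate 1 or 3 or any PE control replicate (limma adjusted p up to 0.15). Reads of Kcnq1 and its antisense RNA Kcnq1ot1, of mean 400 normalised reads, overlap in exons over 121 bases, and whether the counting told the strands apart is not known from the labels.

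Other voltage-gated subunits were seen at lower levels. Kcnq5 (ENSMUSG00000028033.17, chr1:21398403-21961942, minus strand), a subunit of the M-type current known from neurons and smooth muscle, had 313, 273 and 304 normalised reads with PBS and 578, 597 and 599 with PE. Kcnq5 rose by 1.00 ± 0.12 (limma adjusted p = 4.2e-06), and no library of the groups overlapped. Kcnh7 (ENSMUSG00000059742.11, chr2:62693414-63184287, minus strand), a relative of Kcnh2, went from 664, 650 and 666 to 472, 494 and 482 and fell by 0.45 ± 0.12 (limma adjusted p = 0.01). Its exons share 696 bases with Gca on the other strand, a gene of mean 370 normalised reads. Kcnf1, a silent modifier subunit, went from 17.1, 31.7 and 10.4 to 67.9, 75.4 and 86.8 and rose by 2.03 ± 0.30 (limma adjusted p = 4.3e-05).

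The calcium- or sodium-activated channels held the lowest class median, -1.22, with 5 of 8 lower and 1 higher, beside 12.8% and 12.6% of all tested genes. Kcnn1, a small-conductance channel, had 187, 185 and 189 normalised reads with PBS and 62.5, 70.1 and 46.7 with PE, and fell by 1.65 ± 0.17 (limma adjusted p = 7.2e-07). Its relative Kcnn2, known from atrial repolarisation, went from 430, 397 and 401 to 285, 214 and 221 and fell by 0.78 ± 0.15 (limma adjusted p = 0.00067). Kcnn3 fell by 1.63 (limma adjusted p = 0.0011), from 82.5, 58.3 and 81.2 to 24.8, 21.3 and 22.8. Those 3 small-conductance genes moved down without overlap. Kcnt2, a sodium-activated channel, went from 56.9, 77.7 and 56.6 to 12.9, 10.6 and 13 and fell by 2.28 ± 0.31 (limma adjusted p = 1.4e-05). Kcnma1, the large-conductance channel, had 25.6, 8.18 and 12.3 with PBS against 5.39, 1.06 and 0 with PE and fell by 2.65 ± 0.61 (limma adjusted p = 0.003). Its mean over the libraries was 6.52, and it was not among the expressed members. With PE in knockdown cells the change of Kcnma1 was -0.625 and was not called. Kcnn4, the intermediate-conductance channel known from blood cells and fibroblasts, was the 1 of this class that rose. Kcnn4 went from 4.74, 4.09 and 17.9 to 21.5, 28.7 and 23.9 (1.64 ± 0.39, limma adjusted p = 0.0035). In the same comparison 2 of 5 tested leukocyte markers rose and 6 of 8 fibroblast markers fell, and a link to Kcnn4 was not tested. The summed level per kilobase of the class was 116 in PBS control and 55.3 in PE control cells.

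Among auxiliary subunits Kcne4, which can damp voltage-gated channels, went from 176, 174 and 192 normalised reads to 54.9, 48.9 and 52.1 and fell by 1.78 ± 0.16 (limma adjusted p = 6.7e-08). Kcne1l fell by 2.03 (limma adjusted p = 3.3e-05). The tandem-pore Kcnk3 (chr5:30588170-30625271, plus strand) had 2702, 2945 and 2746 with PBS and 2695, 2532 and 2392 with PE. The PE libraries lay just below the PBS libraries, and its change of -0.14 was not called (limma adjusted p = 0.42). Kcng2 had 3357, 3179 and 3552 against 3959, 3535 and 3269 and was not called either. Of the current genes without a call in any comparison, Kcna5, an atrial delayed rectifier, had 15.2, 16.4 and 9.44 with PBS and 7.54, 12.7 and 13 with PE. Kcne2, an auxiliary subunit, Kcnj14, an inward rectifier, and the tandem-pore Kcnk1, Kcnk2 and Kcnk6 had no call either, and of these 6 genes Kcnk2, which answers to stretch, was the highest with 59.6 to 115 over the libraries.

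A call close to the threshold in the control cells was that of the tandem-pore Kcnk5 (-0.51, limma adjusted p = 0.045), with 93.0, 81.8 and 97.2 normalised reads against 66.8, 57.4 and 66.2. The groups did not overlap, but the call was lost without PBS control replicates 1 or 3, PBS knockdown replicates 1 or 3, any PE control replicate or PE knockdown replicate 3 (up to 0.15). Scaling each library to the same total moved the median of all genes from -0.01 to -0.15. The split of called members went from 9 higher and 19 lower to 5 and 23, with the call of Kcne1 among those lost. Over all tested genes the split went from 2742 higher and 2801 lower to 1681 and 4289. The 3 libraries far from their groups were replicate 2 of PBS control, replicate 2 of PBS knockdown and replicate 1 of PE knockdown. A fit without them gave 12 higher and 21 lower members, and 3803 and 3618 over all tested genes.

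In the cells with the lincRNA-p21 GapmeR, PE lowered 20 of 77 members and raised 7, beside 14% and 13.4% of all tested genes, with a median of -0.41. The same 14 genes fell in each background, 73.7% of the 19 and 70.0% of the 20: Kcnd1, Kcnd2, Kcne1l, Kcne4, Kcnh7, Kcnip2, Kcnj11, Kcnj12, Kcnj2, Kcnj3, Kcnn1, Kcnn2, Kcnq1 and Kcnt2. Kcnf1, Kcnj4 and Kcnq5 rose in each background, 33.3% of the 9 and 42.9% of the 7, and no member was called in opposite directions. These 2 comparisons share no library. Over all tested genes, the shared falls were 69.6% and 63.9% of those in control and knockdown cells, and the shared rises 67.4% and 63.3%.

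Values in knockdown cells ran as follows for the genes already described. Kcnip2 had 405, 449 and 390 normalised reads with PBS and 61.0, 68.8 and 60.6 with PE, and its change of -2.69 (limma adjusted p = 2e-11) was the lowest among the called members. Kcnj3 went from 946, 944 and 1092 to 330, 266 and 304 (-1.73, limma adjusted p = 3.6e-10) and Kcnd2 from 68.9, 66.9 and 59.6 to 19.3, 14.9 and 18.9 (-1.83, limma adjusted p = 7.4e-07). Kcnj4 went from 122, 154 and 99.0 up to 228, 234 and 248 (0.94, limma adjusted p = 0.00039). None of these 4 genes had overlapping groups. Kcnq5, at 123, 144 and 142 against 157, 179 and 192, rose by 0.36 (limma adjusted p = 0.031), a call lost without PBS knockdown replicate 1 or PE knockdown replicate 2 or 3 (up to 0.13).

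Some genes had a PE call with the lincRNA-p21 GapmeR alone. Kcnk3 had 3167, 4473 and 3256 normalised reads with PBS and 2126, 2321 and 2223 with PE and fell by 0.69 ± 0.11 (limma adjusted p = 0.00012). Kcng2 had 3078, 4753 and 3144 against 2534, 2653 and 2630 and fell by 0.46 ± 0.13 (limma adjusted p = 0.012), a call lost when only the 6 libraries compared were fitted (0.051). PBS knockdown replicate 2 was the high library for both, and for Kcnh2, where it had 5644 beside 3696 and 3909. Kcnd3 rose by 1.11 (limma adjusted p = 0.0075), Kcnj15 by 0.75 (limma adjusted p = 0.0046) and Kcnmb1, a subunit of the large-conductance channel, by 1.01 (limma adjusted p = 0.0051). Kcnj8 fell by 1.79 (limma adjusted p = 0.00059) and Kcna4 by 0.44 (limma adjusted p = 0.023), the latter lost without PBS knockdown or PE knockdown replicates 2 or 3 (up to 0.1).

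The test of that difference found nothing among the members. The interaction of PE and knockdown was called in 0 of 77 members by limma, and in 0 by each of the count tools tried (edgeR, DESeq2, limma-voom), beside 0.055% of all tested genes by limma. DESeq2 called 124 of the 21799 genes, edgeR 13 and limma-voom 12. By limma 14 of the 77 members had an unadjusted p below 0.05. The matching share over all tested genes was not counted, so this number is not read as a result. Kcnq5 (-0.63 ± 0.17, unadjusted p = 0.0017, limma adjusted p = 0.23), Kcnk3 (-0.55, unadjusted p = 0.0029, limma adjusted p = 0.29) and Kcnip2 (-0.56, unadjusted p = 0.0049, limma adjusted p = 0.33) were among these 14. A PE response of any channel gene was therefore not shown to differ between the GapmeRs.

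**Figure D3:**
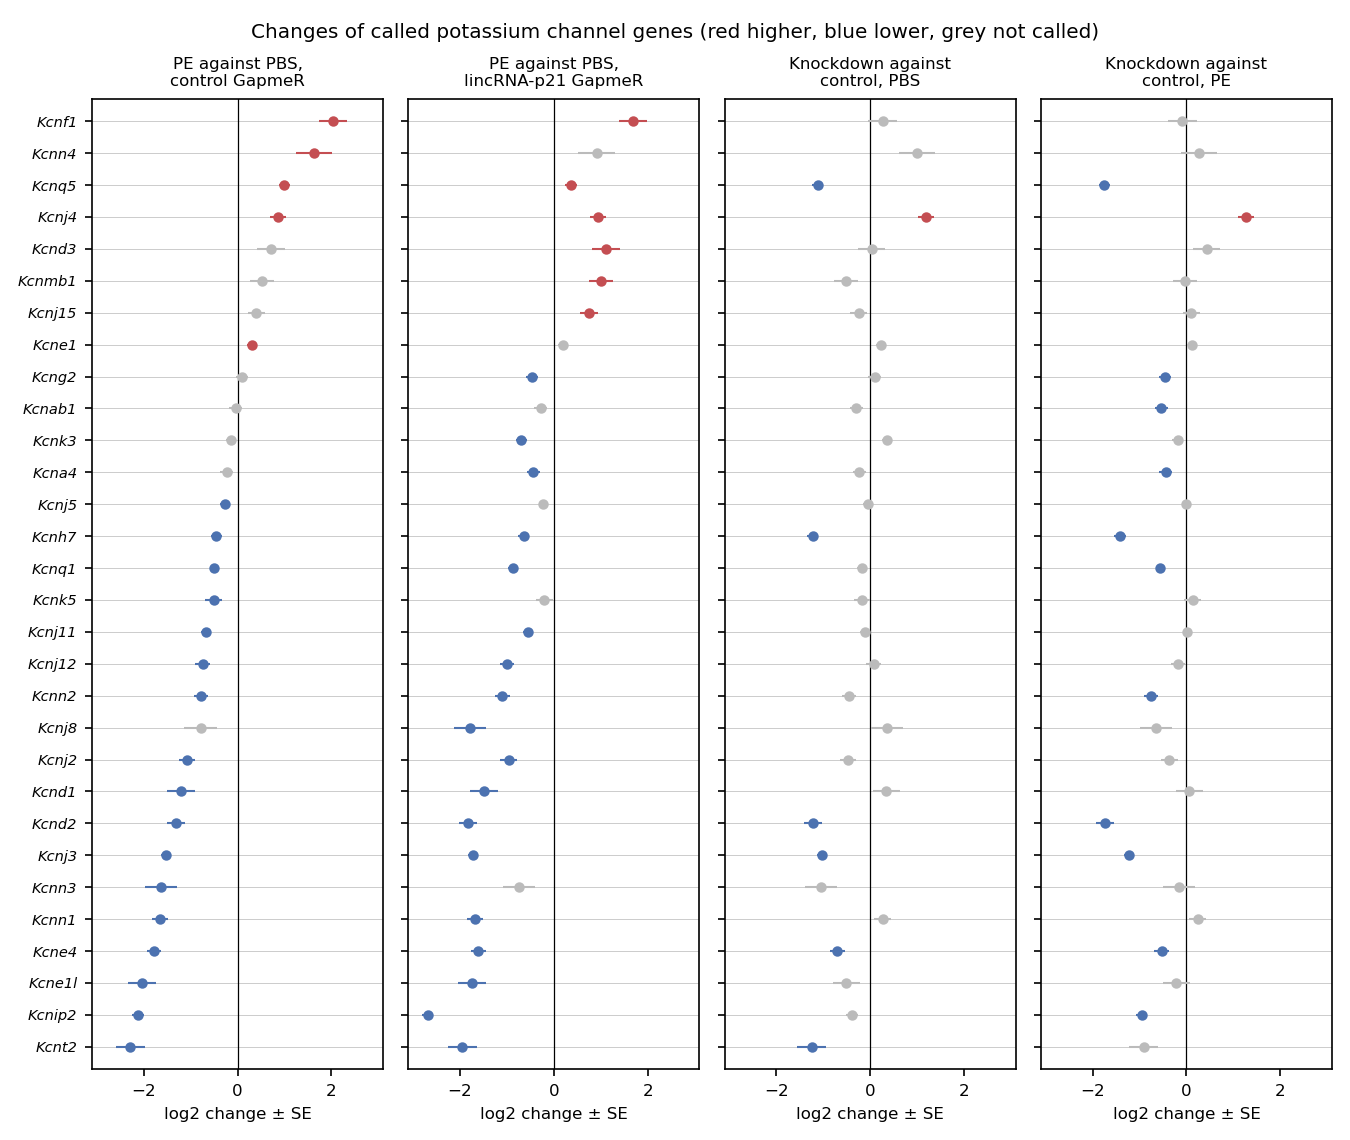
Log2 change with its SE for 30 Kcn genes of mean at least 10 that were called in any comparison, in 4 panels for PE against PBS with each GapmeR and for the knockdown within PE and within PBS. Red points are higher, blue lower and grey not called, and Kcnj3, Kcnd2, Kcnh7 and Kcne4 are blue in all 4 panels while Kcnj4 is red in all 4.

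The lincRNA-p21 GapmeR lowered more channel genes than it raised as well. In PE 13 of 77 members fell and 2 rose, beside 7.14% and 4.57% of all tested genes, and in PBS 6 fell and 1 rose, beside 3.21% and 1.36%. The medians were -0.09 and -0.12, beside 0.01 and 0.00 for all genes. Kcnd2, Kcne4, Kcnh7, Kcnj3 and Kcnq5 fell with each treatment, 38.5% of the 13 and 83.3% of the 6, beside 35.2% and 78.3% over all genes that fell, and Kcnj4 rose with each. Of the 26 genes of cardiac currents, 7 fell and 1 rose in PE, and 2 fell and 1 rose in PBS.

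Kcnj3 fell by 1.22 in PE (limma adjusted p = 1.4e-07) and by 1.02 in PBS (limma adjusted p = 2.9e-06), so that its mean was 2017 ± 66.2 (SD) in PBS control, 994 ± 85.0 in PBS knockdown, 697 ± 18.4 in PE control and 299.9 ± 31.9 in PE knockdown cells. The 4 groups of Kcnj3 did not overlap, and its interaction of -0.20 ± 0.14 was not called (limma adjusted p = 0.69). Kcnj5 showed a knockdown change of 0.00 in PE and -0.05 in PBS (limma adjusted p = 1.0 and 0.83). Kcnj4 rose by 1.26 in PE (limma adjusted p = 5.1e-05) and by 1.19 in PBS (limma adjusted p = 0.0003), with means of 54.0 ± 9.95, 125 ± 27.5, 98.2 ± 3.35 and 237 ± 10.3 in the same order of groups. PE knockdown cells were thus highest for Kcnj4 and lowest for Kcnj3. Kcnj2, at 211, 126 and 202 in PE knockdown libraries, had no knockdown call (-0.37, limma adjusted p = 0.21 in PE).

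Other large knockdown changes included those of the voltage-gated Kcnq5, Kcnd2 and Kcnh7. Kcnq5 fell by 1.75 in PE (limma adjusted p = 1.3e-08) and by 1.12 in PBS (limma adjusted p = 8.7e-06), Kcnd2 by 1.74 (limma adjusted p = 4e-06) and 1.22 (limma adjusted p = 0.00065). Kcnh7 had 265, 267 and 316 normalised reads in PBS knockdown and 214, 176 and 155 in PE knockdown libraries, and fell by 1.42 in PE (limma adjusted p = 2.2e-07) and 1.23 in PBS (limma adjusted p = 3.2e-06). No knockdown library of Kcnq5, Kcnd2 or Kcnh7 reached its control libraries under the same treatment. Kcnip2 fell by 0.96 in PE (limma adjusted p = 2.7e-05), and its change of -0.39 in PBS was not called (limma adjusted p = 0.085), although edgeR (adjusted p = 0.034), DESeq2 (0.017) and limma-voom (0.024) on recovered reads called it. Kcnq1 fell by 0.55 in PE (limma adjusted p = 0.00084), with 517, 562 and 558 in the knockdown libraries, beside Kcnq1ot1 at -0.44 (limma adjusted p = 0.049). Kcnn2 fell by 0.76 in PE (limma adjusted p = 0.0019). Kcnh2 had no knockdown call, at -0.22 in PE (limma adjusted p = 0.33) and 0.20 in PBS (limma adjusted p = 0.45).

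Some other knockdown calls were lost in fits that left out 1 library. In PE these were Kcne4 (-0.53, limma adjusted p = 0.032), lost without PBS control replicate 1 or any PE control or PE knockdown replicate (up to 0.11), Kcng2 (-0.46, limma adjusted p = 0.027), lost without PE control replicate 1 or 2 or any PE knockdown replicate (up to 0.14), and Kcnab1 (-0.54, limma adjusted p = 0.015), lost without replicate 1 or 2 of either PE group (up to 0.071). Kcna4 (-0.45, limma adjusted p = 0.041) was lost without PBS control replicate 1 or 3, PBS knockdown replicate 3, any PE control replicate or PE knockdown replicate 2 or 3 (up to 0.17). In PBS, Kcne4 (-0.70, limma adjusted p = 0.013) was lost without PBS control replicate 3 (0.077), and Kcnt2 (-1.24, limma adjusted p = 0.024) without any PBS control replicate or PBS knockdown replicate 2 (up to 0.11). The count of 15 called members in PE was 9 without PE control replicate 1, and the calls over all tested genes went from 2553 to 1757 in that fit. Scaling to equal totals moved the median of all genes to 0.09 in PE and 0.07 in PBS. It gave 2 higher and 9 lower members in PE and 2 and 6 in PBS. Over all tested genes it gave 1501 higher and 1099 lower in PE, and 481 and 501 in PBS. Without the 3 distant libraries 2 members rose and 18 fell in PE, and 1 and 9 in PBS. Over all tested genes 2028 rose and 2644 fell in PE in that fit, beside 997 and 1556 in the main fit. In PBS 733 rose and 1132 fell, beside 297 and 700.

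Members of low level, with a mean under 10 normalised reads, were tested too, and 32 of the 77 were such genes. In PE against PBS 2 of these rose and 1 fell in control cells, beside 12.6% and 12.8% of all tested genes. For PE in knockdown cells 1 rose and 2 fell, beside 13.4% and 14%. With the knockdown 1 rose and 1 fell in PE, beside 4.57% and 7.14%, and none was called in PBS, beside 1.36% and 3.21%. Their changes lay between -2.65 and 2.17 on the log2 scale.

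Long channel genes fell with the knockdown more often than short ones, as long genes did in the whole table. Among members of mean at least 50 normalised reads, 8 span at least 100 kb of genome, and 7 of these 8 fell with the knockdown in PE (87.5%), beside 43% of all protein-coding genes of that level and length. Of the 19 shorter members 5 fell (26.3%), beside 6.85%. In PBS 4 of 8 long members fell (50%) beside 21.4%, and 1 of 19 short members (5.26%) beside 2.71%. The median change of the long members was -0.99 in PE and -0.78 in PBS, and that of the shorter ones -0.18 and -0.10. Across the 27 members Spearman's rho of length and knockdown change was -0.66 in PE and -0.43 in PBS, and across 11651 protein-coding genes -0.36 and -0.38. The points share their libraries and are given as a description. For PE the members' rho was 0.08 in control and -0.09 in knockdown cells, beside -0.095 and -0.144 across protein-coding genes. With PE in control cells 62.5% of the long and 42.1% of the shorter members fell, beside 24.6% and 16% of protein-coding genes of those lengths. In knockdown cells these shares were 62.5% and 47.4%, beside 36.5% and 18.7%. The spans of the genes named above ran from Kcnq5 (564 kb), Kcnd2 (514 kb), Kcnh7 (491 kb), Kcnq1 (321 kb) and Kcnj3 (162 kb) to Kcnip2 (24.2 kb) and Kcnj4 (21.5 kb). Kcnip2 was a short gene that fell and Kcnj4 a short gene that rose.

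**Figure D4:**
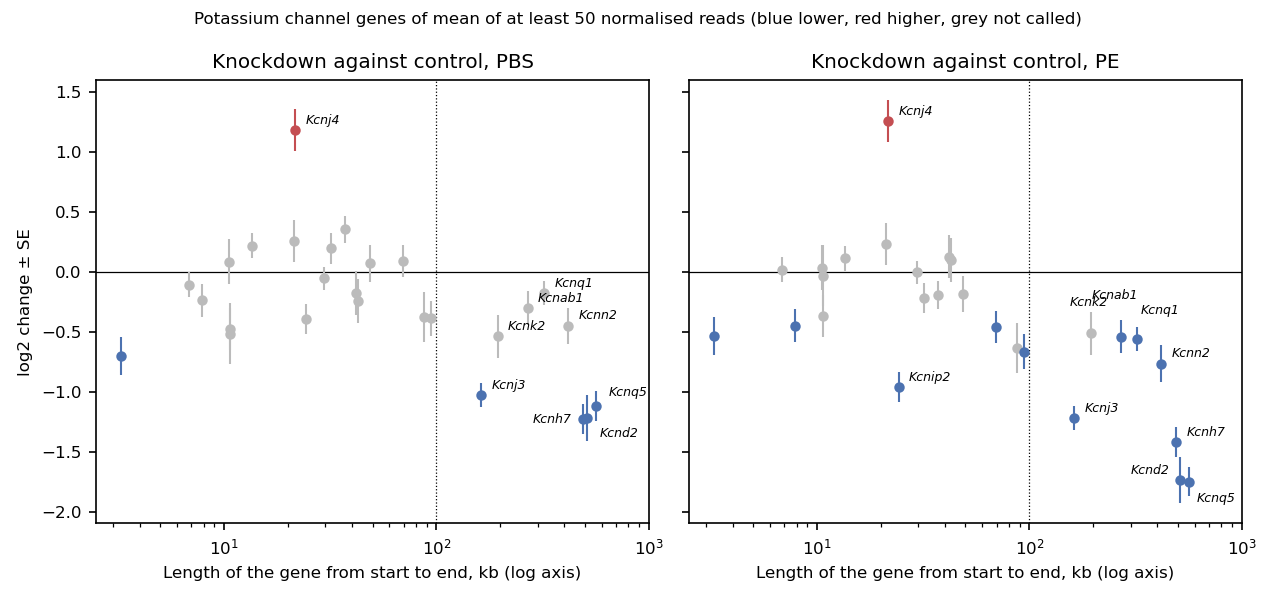
Log2 change with the knockdown in PBS (left) and PE (right) against the genomic span of the 27 Kcn genes of mean at least 50 normalised reads, with the span on a log axis and a dotted line at 100 kb. In PE 7 of the 8 genes to the right of the line are lower, and Kcnj4, at 21.5 kb, is the highest point.

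Summed over all 94 members, channel RNA was 24210 ± 135 (SD) normalised reads in PBS control, 23480 ± 3734 in PBS knockdown, 20670 ± 883 in PE control and 17050 ± 74.0 in PE knockdown libraries. The PBS knockdown libraries ran from 21030 to 27780 in this sum. Per kilobase, the voltage-gated sum was 1293 in PBS control, 1315 in PBS knockdown, 1310 in PE control and 1021 in PE knockdown cells. The tandem-pore sum was 780, 991, 715 and 631 in the same order, with PBS knockdown libraries from 870.5 to 1204, and the auxiliary sum 577, 527, 426 and 411. Kcnh2, which had no call, makes up most of the voltage-gated sum, at 882 in PE control and 758 in PE knockdown cells. Kcnq1 was at 196 and 133 in these groups. Kcnq1, Kcnd2, Kcnq5 and Kcnh7 were among the voltage-gated genes called lower with the knockdown in PE.

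Since Kcnj3 and Kcnj4 moved oppositely with PE and with the knockdown, the 250 bases before each start site are shown from RefSeq (GRCm38.p6), with the GC box GGGCGG on either strand in capitals. They lie at chr2:55435720-55435969 on the plus strand and chr15:79505242-79505491 on the minus strand.
Kcnj3: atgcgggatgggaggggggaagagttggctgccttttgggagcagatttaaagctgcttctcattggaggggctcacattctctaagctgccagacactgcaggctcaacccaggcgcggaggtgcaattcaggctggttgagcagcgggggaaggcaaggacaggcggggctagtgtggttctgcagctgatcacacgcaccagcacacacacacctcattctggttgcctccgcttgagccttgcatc
Kcnj4: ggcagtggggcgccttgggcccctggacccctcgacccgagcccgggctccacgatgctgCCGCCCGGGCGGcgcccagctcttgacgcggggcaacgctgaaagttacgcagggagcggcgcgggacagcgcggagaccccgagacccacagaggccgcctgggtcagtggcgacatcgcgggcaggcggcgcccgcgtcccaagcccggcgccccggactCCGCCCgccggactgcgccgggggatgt

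The shown stretch of Kcnj4 held 3 GC boxes and that of Kcnj3 held 0. The 300-base windows, which reach 50 bases past the start, held 4 and 1 and had a GC content of 76.0% and 57.7%. Windows of 69 members were in the RefSeq table, 94 in all, since some genes have more than 1 start. A GC box on either strand was in 47.9% of these and in 35.7% of all 32851 windows, TATAAA in 5.32% and 13.6%, and the E-box CANNTG in 73.4% and 72.3%. The AP-1 motif TGANTCA was in 4.26% and 7.81%, and the cyclic AMP response motif TGACGTCA in 0% and 1.79%. The motif AGATAA, bound by GATA factors, was in 4.26% and 11.2%. In the 15 windows of members lower with PE in control cells, 66.7% held a GC box and 80.0% an E-box, and in the 8 windows of members higher with PE 50% and 12.5%. These counts are small and are a description of letters only.

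Genes that work with the channels were followed as a list of 19 partners and regulators, of which 16 were tested. With PE in control cells 4 fell and 2 rose, beside 12.8% and 12.6% of all tested genes. Abcc9 and Klf15, a factor that drives Kcnip2 transcription in heart, were among the falls (Klf15 -1.42, limma adjusted p = 4.3e-07). Amigo1, a channel partner, fell too (-0.71, limma adjusted p = 0.00056). Sgk1, a kinase that raises surface channel number, rose by 1.00 (limma adjusted p = 2e-07). With the knockdown in PE 2 rose and 4 fell, beside 4.57% and 7.14% of all tested genes, and in PBS none was called. Among those called in PE were Klf15 at 0.60 (limma adjusted p = 0.0091) and Nedd4l, a ubiquitin ligase for channels, at -0.56 (limma adjusted p = 0.00019). The muscle caveolin Cav3 was at -0.72 (limma adjusted p = 0.001) and Abcc9 at -0.40 (limma adjusted p = 0.014). Klf15 and Kcnip2 had the same sign with PE and opposite signs with the knockdown in PE, and a link between them was not tested.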

How the data were processed

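Polyadenylated RNA of cultured neonatal mouse cardiomyocytes was measured in 12 libraries. STAR, SAMtools, featureCounts and the build GRCm38.p6 are named in the submitters' processing notes. Not given in the sources used here are their versions and whether strand was counted. A single table of signal per gene was deposited by the authors. Its values are reads over a size factor for each library, and 100% of them gave whole reads (tolerance 0.001). Depth was 21325485 to 22139681 recovered reads per library. Raw counts had been allowed for; since the values are scaled, limma 3.58.1 was the test, and edgeR 4.0.16, DESeq2 1.42.0 and limma-voom (R 4.3.3) on recovered reads were alternatives. The 21799 genes with a mean of 1 or more entered the test as log2(value + 1), a scale that understates changes of low genes, in a model of 4 group means with a trended prior, two-sided, with Benjamini-Hochberg adjustment at 0.05. Results of the same fit on simulated data were checked. GENCODE M21 matched 52135 of 55416 genes; the other 3281 held 0.195% of signal. Coding sequences were translated from GENCODE, and promoters came from RefSeq. Tables were handled with Python 3.11.15 and pandas 2.3.3.

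The members, lists and tests were chosen with earlier results of these data known. Named were 26 genes of cardiac currents, each Kcn gene called in any comparison with a mean of at least 10, the 8 highest per kilobase, and up to 4 called genes of other lists; lower members are given as counts and ranges, with Kcnma1 named as a current gene. Results of a few genes of these lists are not reported here; they stay in the counts. Alternatives were pseudocount 0.1, a CPM filter, equal totals, the replicate block, the 6 libraries of a comparison alone, each library left out and 3 distant libraries left out.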

Additional observations from a re-analysis of the deposited data

How the results depend on the processing

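Of 70 called changes of 41 named genes, 55 kept their call in each of the 22 alternatives that gave a value and 56 in every fit without 1 library. Kcnma1 did not pass the CPM filter and had no value there. Over these calls and alternatives 1438 values kept the call, 101 lost it and 0 changed sign. Of the values not called, 47 became called under an alternative and 2863 did not. Leaving out 1 library gave 21 to 29 called members for PE in control cells and 23 to 28 for PE in knockdown cells. The knockdown gave 9 to 17 in PE and 6 to 10 in PBS, and the interaction 0. Over all tested genes the same fits gave 4263 to 6552, 4906 to 6129, 1671 to 3502, 510 to 1181 and 3 to 22 calls. The 9 came without PE control replicate 1; the cause was not tested. Long members that fell numbered 6 to 8 with the knockdown in PE and 4 to 6 in PBS over all alternatives, a count chosen after the data were seen.

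With the replicate number as a replicate block the counts were 25, 27, 13, 7 and 0, and 7 and 4 long members fell. Over all tested genes the block gave 5171, 5708, 2269, 822 and 12 calls. Residuals of same-numbered libraries correlated between -0.435 and 0.409, with 4 of 18 pairs over 0.1. Of the 12 libraries 3 correlated best with their own number. With 3 libraries a group this check cannot exclude a pairing, and the labels state none. Among calls lost with the block were those of Kcnj5 (limma adjusted p = 0.06) and Kcnk5 (0.063) for PE in control cells and of Kcna4 (0.066) and Kcne4 (0.051) for the knockdown in PE. The 3 libraries a group, and means under 10 reads for 32 tested members, limit the precision.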

Other observations

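Ion pumps and cation-chloride cotransporters, 18 genes of which 16 were tested, changed with PE in control cells in either direction. Of the 16, 5 were higher and 3 lower, beside 12.6% and 12.8% of all tested genes. Atp1b1, a beta subunit of the sodium pump, rose (log2 change 0.66, limma adjusted p = 1.7e-05), and the related Atp1b2 fell (-1.44, limma adjusted p = 6.1e-06). With the knockdown 2 of the 16 fell in PE and 2 in PBS, beside 7.14% and 3.21% of all tested genes. None rose, beside 4.57% in PE and 1.36% in PBS. The cotransporter Slc12a2 was among the falls, at -0.99 in PE (limma adjusted p = 6.6e-06) and -0.57 in PBS (limma adjusted p = 0.0059).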
